A study of Mus musculus with 4 samples.

Results

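Colony-stimulating factors are secreted proteins that keep myeloid cells alive, drive their division and set how they mature. The ligands *Csf1* and *Csf3* and the receptor genes *Csf1r*, *Csf2ra*, *Csf2rb*, *Csf2rb2* and *Csf3r* were followed here by name in single-cell RNA sequencing of CD45+ leukocytes taken from the small intestinal muscularis of mice, as 7 of the 16308 genes in the count tables. Cells were sorted after intestinal manipulation, a surgical handling of the bowel that inflames its muscle layer. The 4 libraries came from WT mice (C57BL/6J) and from mice that lack the chemokine receptor CCR2 in every cell (B6.129S4-Ccr2tm1Ifc/J, CCR2 KO), 12 weeks old, at 24 h and at 72 h post-injury. Where values of all libraries are listed, the order is 24 h WT, 24 h CCR2 KO, 72 h WT, 72 h CCR2 KO. All 4 groups had undergone the manipulation, no naive library was analysed here, and each library was pooled from several mice, so that there was 1 library per group and no replicate check of any difference. Intervals below are exact 95% counting intervals and hold neither the spread between mice nor that between libraries.

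CSF1, also called M-CSF, binds the tyrosine kinase CSF1R and sustains monocytes and macrophages (Mφs). CSF3, or G-CSF, binds CSF3R and drives the production and release of neutrophils, while CSF2, or GM-CSF, binds a receptor made of the alpha chain CSF2RA and the common beta chain CSF2RB. The common beta chain also serves the interleukin 3 and interleukin 5 receptors, and mice carry a further beta chain gene, *Csf2rb2*, whose product serves interleukin 3. Resident Mφs of the gut muscle layer are known to depend on CSF1R.

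All 7 genes are protein-coding (GRCm38, GENCODE annotation). *Csf1* spans chr3:107741048-107760469 on the minus strand with up to 9 exons in a transcript, *Csf3* chr11:98701263-98703629 on the plus strand with 5 exons. *Csf2ra* spans chr19:61223957-61228429 on the minus strand and *Csf3r* chr4:126024550-126044440 on the plus strand. *Csf2rb* (chr15:78325752-78353847, plus strand) and *Csf2rb2* (chr15:78282507-78305721, minus strand) are neighbours that point away from each other, 20031 bases apart. These beta chain genes are near copies. Of all windows of 91 bases, 8.05% of those in the longest coding transcript of *Csf2rb* are also in that of *Csf2rb2*, and none of those in its last 500 bases, where a 3′ library reads. Counts of the pair were therefore taken as separable, with that limit.

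For 4 of the 7 genes the 250 bases before the RefSeq start (GRCm38.p6) are shown. No window was used for *Csf3*, *Csf1r* and *Csf2rb*. Capitals mark the letters GAGGAA or their reverse complement, the core of the motif of PU.1, the factor that many myeloid genes carry near their start. The sequences are written in the direction of the gene, from chr3:107760470-107760719 (*Csf1*, minus strand), chr19:61228419-61228668 (*Csf2ra*, minus strand), chr15:78305722-78305971 (*Csf2rb2*, minus strand) and chr4:126024409-126024658 (*Csf3r*, plus strand).
Csf1: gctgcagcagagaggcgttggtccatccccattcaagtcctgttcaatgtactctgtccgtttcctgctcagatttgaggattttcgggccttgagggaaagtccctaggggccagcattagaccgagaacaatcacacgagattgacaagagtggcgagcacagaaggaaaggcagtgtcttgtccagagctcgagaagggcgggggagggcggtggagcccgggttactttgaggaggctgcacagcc
Csf2ra: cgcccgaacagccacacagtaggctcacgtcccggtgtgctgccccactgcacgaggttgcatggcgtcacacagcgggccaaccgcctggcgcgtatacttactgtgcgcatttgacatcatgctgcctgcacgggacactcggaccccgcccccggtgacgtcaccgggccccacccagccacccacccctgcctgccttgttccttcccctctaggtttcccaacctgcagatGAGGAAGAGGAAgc
Csf2rb2: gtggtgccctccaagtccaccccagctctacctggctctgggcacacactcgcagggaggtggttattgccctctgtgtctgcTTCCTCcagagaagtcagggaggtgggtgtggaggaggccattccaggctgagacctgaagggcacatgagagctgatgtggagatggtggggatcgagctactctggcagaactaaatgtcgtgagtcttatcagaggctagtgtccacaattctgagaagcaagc
Csf3r: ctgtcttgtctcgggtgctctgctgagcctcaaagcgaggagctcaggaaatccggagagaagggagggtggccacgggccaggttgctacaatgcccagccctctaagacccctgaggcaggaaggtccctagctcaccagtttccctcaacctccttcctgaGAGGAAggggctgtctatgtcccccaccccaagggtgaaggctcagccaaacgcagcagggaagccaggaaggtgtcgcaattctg
GAGGAA occurred 2 times in the *Csf2ra* window, at 14 and 8 bases before the start, 1 time in that of *Csf3r*, and 1 time on the other strand in that of *Csf2rb2*. The *Csf2ra* window also held the cyclic AMP response element TGACGTCA and a match of the C/EBP letters TTNCNNAA, and none of the motifs, nor the AP-1 letters TGANTCA, was found on either strand of the *Csf1* window. Over all 32851 mouse promoter windows of this length, 23.3% held GAGGAA, 36.8% TTNCNNAA, 6.75% TGANTCA and 1.55% TGACGTCA on one or the other strand. For *Csf3r* and *Csf2ra* the RefSeq and GENCODE starts differ. The later part of the *Csf3r* window and the last bases of the *Csf2ra* window lie inside the GENCODE gene bounds given above. These stretches hold the GAGGAA of *Csf3r*, the *Csf2ra* match at 8 bases before the start and part of that at 14. A match is only a run of letters, and binding was not measured.

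The libraries held 1042 to 1766 cells after removal of 14 cells with connective tissue, muscle, glial or epithelial transcripts, and these cells held 9620609 to 21206308 unique molecular identifiers (UMIs, 1 for each captured mRNA). Cells were clustered without the 7 genes, and classes were named from their marker genes. *Csf1* was nonetheless among the 10 leading genes of 3 granulocyte clusters, *Csf3r* of the neutrophil cluster led by *Cxcr2*, and *Csf3* of 1 Mφ sub-cluster. Mφ-like cells, which include monocytes, numbered 1277 and 844 in WT against 219 and 148 in CCR2 KO at 24 h and 72 h, and neutrophil-like cells 297 and 87 against 1293 and 223. Dendritic cell (DC)-like cells numbered 61 and 176 against 60 and 127. A granulocyte cluster led by *Siglecf* and *Mmp9* (10 and 105 cells in WT, 43 and 367 in CCR2 KO) carried 8 to 10 of 12 neutrophil markers and 1 of 5 eosinophil markers at 20 CPM or more where it had 20 cells. Of the marker lists, that of mast cells and basophils scored highest in it. In CCR2 KO 24 h all 6 markers of that list in the tables were at 20 CPM or more and summed to 3656 CPM, against 0 CPM in WT 72 h and 63.6 CPM (1 of 6) in CCR2 KO 72 h, while the 12 neutrophil markers summed to 28279, 27493 and 25503. The cluster was left without a cell type name. *Ccr2* itself was at 720 and 923 CPM (UMIs of a gene divided by all UMIs of the same cells, scaled to CPM in the usual way) in the WT libraries and at 47.4 and 54.4 in CCR2 KO. Median UMIs per cell were 2083 to 4713 in neutrophil-like, 12602 to 15791 in Mφ-like, 15327 to 27156 in DC-like and 6559 to 8713 in the T-like cells used below, so levels are given in CPM and shares of cells after thinning each cell to 1000 UMIs.

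**Figure D1:**
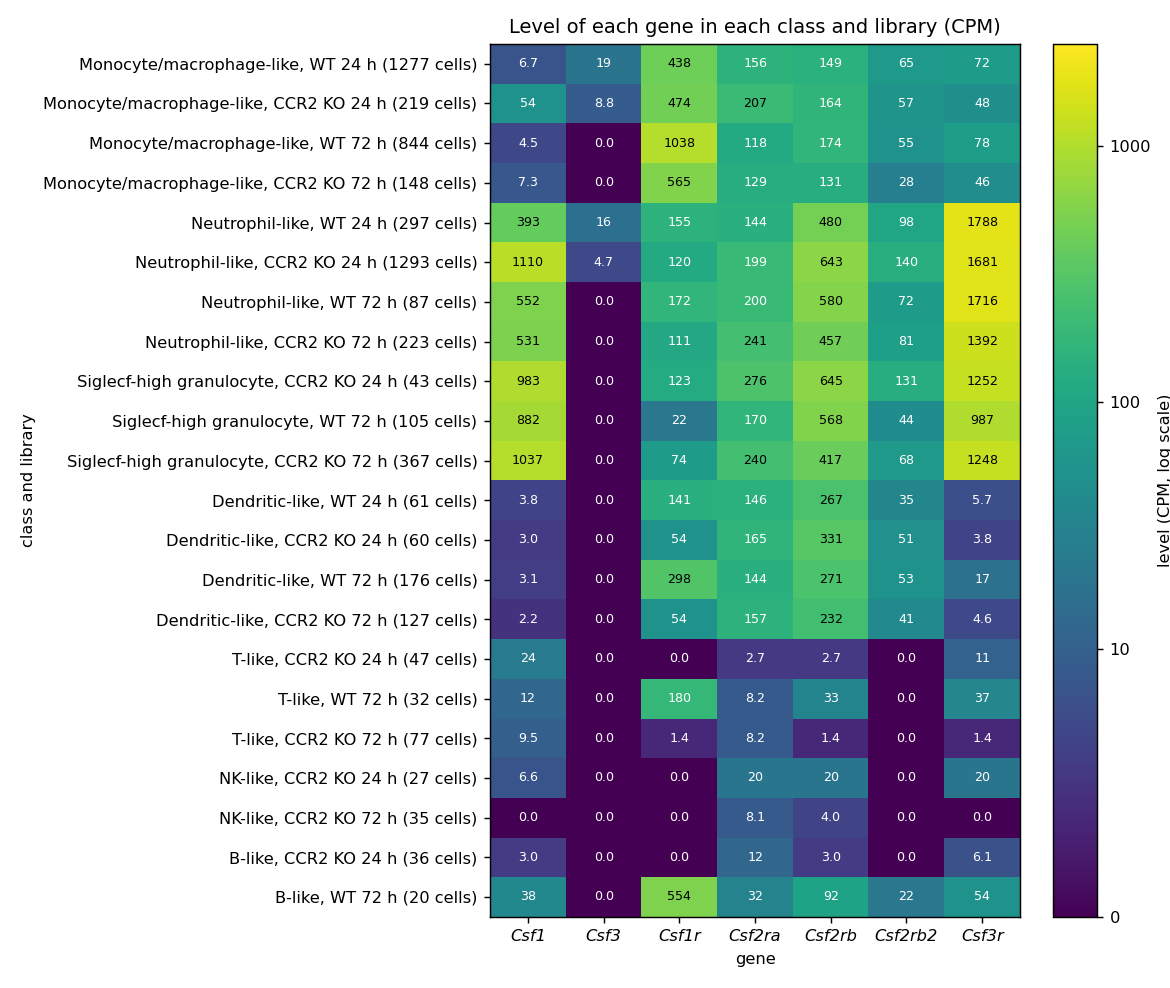
Level of each gene, in CPM on a log colour scale with the value written in each cell, for every class and library with at least 20 cells. *Csf1* and *Csf3r* are highest in the granulocyte rows, *Csf1r* in the monocyte/macrophage-like rows, and *Csf1r* is near 0 in the lymphocyte rows apart from the B-like and T-like rows of WT 72 h.

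Granulocytes held most of the *Csf1* mRNA of every library. *Csf1* was detected with 436, 4873, 420 and 1817 UMIs, or 20.6, 468, 25.3 and 189 CPM over all cells. Neutrophil-like cells and the *Siglecf*-high cluster together held 69.7%, 95.7%, 81.0% and 98.2% of these UMIs while they made up 18.3%, 75.7%, 14.6% and 56.6% of the cells. The CCR2 KO libraries thus had both more granulocytes and more *Csf1* over all sorted cells. Stromal and glial cells, which are also known sources of CSF1, were outside the CD45+ sort.

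In neutrophil-like cells the level of *Csf1* was 393 CPM (348 to 441) for WT against 1110 CPM (1078 to 1142) for CCR2 KO at 24 h. At 72 h the same levels were 552 (464 to 652) and 531 (489 to 575). The 24 h intervals lay far apart and those at 72 h overlapped. The *Siglecf*-high cluster was at 983 (820 to 1169) in CCR2 KO 24 h, 882 (765 to 1013) in WT 72 h and 1037 (979 to 1097) in CCR2 KO 72 h, above the neutrophil-like cells of the same library at 72 h and with an interval that overlapped theirs at 24 h. DC-like cells stayed at 2.15 to 3.83 CPM in all 4 libraries.

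**Figure D2:**
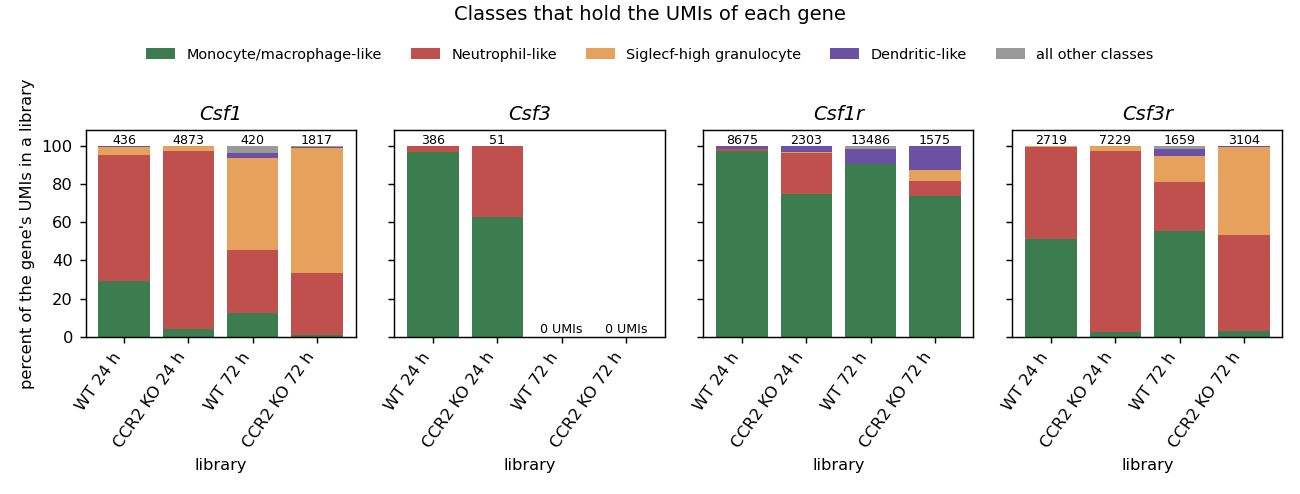
Percent of the UMIs of *Csf1*, *Csf3*, *Csf1r* and *Csf3r* held by each class in each library, with the number of UMIs above each bar. For *Csf1* and *Csf3r* the granulocyte colours fill nearly the whole bar in both CCR2 KO libraries, and *Csf3* has no UMI at 72 h.

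The difference at 24 h was 2.82-fold, a log2 ratio of 1.5 (1.33 to 1.68). It was carried by many cells. After thinning, 66 of 277 WT neutrophil-like cells (23.8%) and 594 of 1276 CCR2 KO cells (46.6%) held a *Csf1* UMI, against 0 of 61 and 0 of 59 DC-like cells, which allows up to 4.92% and 5.08% at this thinned depth. Unthinned, the shares were 38.4% and 68.1% of neutrophil-like cells and 4.92% and 6.67% of DC-like cells (3 of 61 and 4 of 60). The 10 cells richest in *Csf1* held 30.3% of its UMIs in WT (114 cells with a UMI) and 6.26% in CCR2 KO (880 cells). At 72 h the top 10 cells held 64.5% in WT (36 cells with a UMI) and 46.6% in CCR2 KO (98 cells). Such a share also depends on the number of cells with a UMI. The richest cell at 72 h held 19 UMIs in WT and 97 in CCR2 KO. Without it the levels were 483 CPM (400 to 578) and 450 CPM (411 to 491).

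Neutrophil-like cells fell into 4 clusters, and *Csf1* differed more between clusters than between genotypes. A young cluster, led by the granule genes *Retnlg* and *Ly6g*, was lowest, with 24 h levels of 197 CPM (WT) and 277 CPM (CCR2 KO). A cluster led by *Cxcr2* was at 427 and 568. An interferon cluster, led by *Cxcl10* and *Ifit2*, was at 756 (610 to 926) and 1454 (1399 to 1512), and a cluster led by *Il1f9* and *Gdf15* was at 912 in 15 WT cells and 1536 (1452 to 1623) in CCR2 KO.

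The makeup of the class moved with the level. The interferon and *Il1f9* clusters made up 19.5% and 5.05% of WT neutrophil-like cells at 24 h and 42.8% and 18.5% of those in CCR2 KO, while the young cluster made up 35.7% of the former and 8.58% of the latter. With the 4 clusters weighted equally, the mean level at 24 h was 573 CPM for WT against 959 for CCR2 KO, and 736 and 759 at 72 h. The 72 h means rest in part on few cells. The interferon cluster had 3 WT cells with 7 UMIs (879 CPM, 353 to 1810) and 14 CCR2 KO cells. Within clusters the log2 ratio at 24 h was 0.94 (0.64 to 1.26) in the interferon cluster, 0.41 (0.07 to 0.77) in the *Cxcr2* cluster and 0.49 (0.07 to 0.92) in the young cluster, each smaller than over the class as a whole.

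**Figure D3:**
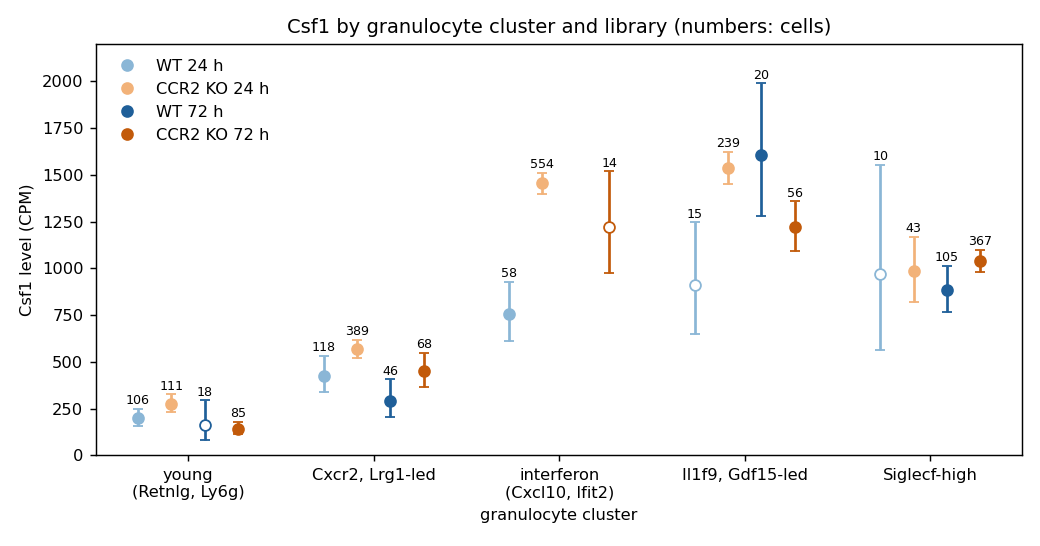
*Csf1* level in CPM by granulocyte cluster and library, with exact 95% counting intervals and the number of cells above each point; open points have 10 to 19 cells and clusters with fewer are left out. The young cluster sits lowest in all 4 libraries, and at 24 h CCR2 KO lies above WT in the interferon cluster.

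Between 24 h and 72 h *Csf1* in neutrophil-like cells went from 1110 to 531 CPM in CCR2 KO, a log2 ratio of −1.06 (−1.19 to −0.94), and from 393 to 552 CPM in WT, a log2 ratio of 0.49 (0.19 to 0.79). The CCR2 KO difference was smaller than 2-fold when the *Siglecf*-high cluster was counted with the neutrophils (−0.49), a cluster that grew from 43 to 367 cells. Over the same time the young cluster went from 8.58% to 38.1% of neutrophil-like cells and the interferon cluster from 42.8% to 6.28%.

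Mφ-like cells held little *Csf1* in 3 libraries, namely 6.66 CPM (5.56 to 7.92) with WT at 24 h, 4.52 (3.39 to 5.92) with WT at 72 h and 7.29 (4.08 to 12.0) with CCR2 KO at 72 h. In CCR2 KO 24 h they held 53.6 CPM (46.4 to 61.7), 7.13-fold over WT, a log2 ratio of 2.83 (2.68 to 3.34 without the 1 CPM that was added to both levels). That library stood alone, and its interval did not overlap any of the others. The signal came from 47 of 219 cells, and 10 cells held 54.9% of it. From there to 72 h the log2 ratio in CCR2 KO was −2.72 (−3.74 to −2.12), or −0.13 with each cell weighted equally and −0.76 after thinning.

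It lay in 2 of the Mφ sub-clusters. A sub-cluster led by *Fabp4* and *Inhba* was at 94.2 CPM (80.3 to 110) in 91 CCR2 KO cells and 20.2 (11 to 33.8) in 50 WT cells. This sub-cluster made up 41.6% of Mφ-like cells in CCR2 KO and 3.92% in WT. A sub-cluster led by *Pf4* and *Fabp5* was at 50.7 (29.5 to 81.2) in 20 CCR2 KO cells and 5.0 (3.38 to 7.14) in 371 WT cells. In the same CCR2 KO library the sub-clusters led by *Mmp13* and by *Cxcl9* were at 2.78 (0.34 to 10.1) and 2.05 (0.05 to 11.4).

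Neutrophil markers in Mφ-like cells also differed between these libraries. *S100a8* and *S100a9* together were at 628 CPM in WT 24 h Mφ-like cells and 85.0 in CCR2 KO 24 h, and all 12 neutrophil markers summed to 1430 CPM (8 of 12 at 20 CPM or more) and 635 CPM (7 of 12). With cells above 0.1% *S100a8* and *S100a9* left out, the *Csf1* level was 6.15 CPM for WT against 51.3 for CCR2 KO. *S100a9* was a leading gene of the young neutrophil cluster, which was low in *Csf1*, and the part of neutrophil RNA in the result was not tested. T-like cells of the CCR2 KO 24 h library were at 24.1 CPM (11 to 45.7, 9 UMIs). After thinning, 4.67% of CCR2 KO and 0.552% of WT Mφ-like cells held a *Csf1* UMI (10 of 214 and 7 of 1267), against 1 of 47 T-like cells (2.13%, 0.054 to 11.3), too few cells to set a background.

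*Csf3* was found at 24 h only. It had 386 UMIs in WT 24 h, 51 in CCR2 KO 24 h and none in either 72 h library. Mφ-like cells of WT and CCR2 KO held 374 and 32 of these, a level of 19.5 CPM (17.5 to 21.5) against 8.80 (6.02 to 12.4), and the 72 h limits that a count of 0 allows were 0.256 and 1.46 CPM. Neutrophil-like cells were at 16.4 (8.48 to 28.7, from 3 cells) and 4.65 (2.80 to 7.26, from 9 cells). No DC-like, T-like or B-like cell held a *Csf3* UMI.

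*Csf3* was a product of few Mφs. In WT 24 h only 78 of 1277 Mφ-like cells held a UMI, 1 cell held 54, and 10 cells held 53.7% of all. A sub-cluster led by *Cxcl3* and *Sod2*, 313 cells in WT 24 h and 5 in CCR2 KO, was at 65.5 CPM (58.7 to 73.0). In the *Fabp4* and *Inhba* sub-cluster WT and CCR2 KO were at 21.6 (12.1 to 35.6) and 18.4 (12.6 to 25.9), with overlapping intervals. The difference in the class as a whole therefore stood beside a sub-cluster present nearly only in WT. The class level was under the 20 CPM minimum, and no 2-fold call was made.

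The remaining ligands were rare, and *Csf2* and *Il5* lay almost wholly outside the myeloid classes. *Csf2*, which encodes GM-CSF, had 210 UMIs in all libraries. Of these 95 were in a cluster led by the T cell receptor gene *Trdc* and 63 in innate lymphoid-like cells. NK-like cells held 40 and T-like cells 10, which left 2 in Mφ-like cells and none in granulocytes, DC-like or B-like cells. Of the 40 in NK-like cells, 35 came from 3 of 35 cells of CCR2 KO 72 h, and the richest cell held 28. *Il34*, the other ligand of CSF1R, had 2 UMIs, both in Mφ-like cells. The 45 UMIs of *Il5*, a ligand of the common beta chain, were all in the *Trdc* cluster, 32 in WT 72 h and 13 in CCR2 KO 72 h.

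*Csf1r*, whose transcripts have up to 22 exons, marked Mφ-like cells in every library. Their levels were 438 CPM (429 to 447), 474 (452 to 497), 1038 (1020 to 1057) and 565 (533 to 598). The class next in order differed between libraries. It was neutrophil-like cells in WT 24 h (155) and CCR2 KO 72 h (111), the *Siglecf*-high cluster in CCR2 KO 24 h (123, with an interval that overlapped that of neutrophil-like cells) and B-like cells in WT 72 h (554, 475 to 643). DC-like cells lay at 54.4 to 298. In WT *Csf1r* was 2.37-fold higher at 72 h than at 24 h, a log2 ratio of 1.24 (1.20 to 1.29). It was more than 2-fold in all 13 alternative settings, some of which cannot change this class. In CCR2 KO the same interval gave a log2 ratio of 0.25 (0.14 to 0.36), or −0.21 after thinning.

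WT 72 h stood apart from the other 3 libraries, and at 72 h CCR2 KO was lower by a log2 ratio of −0.88 (−0.97 to −0.79), a 1.84-fold difference that was past 2-fold in 3 of 13 alternative settings. At 24 h the ratio was 0.11 (0.04 to 0.19), or −0.01 with TMM scaling factors. The share of Mφ-like cells with a *Csf1r* UMI after thinning was 35.4%, 35.5%, 60.1% and 36.2%, against 0 of 47 T-like cells of CCR2 KO 24 h (up to 6.38%). Unthinned, the shares were 94.1%, 83.6%, 97.3% and 74.3%.

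Different sub-clusters held most of the class in the different libraries. In WT 72 h the largest was a *Cd206*-type sub-cluster led by *Gal* and *Apoe*, 46.6% of Mφ-like cells and at 1216 CPM (1187 to 1247), which counted 3 cells in CCR2 KO 72 h. A *Timp2*-type sub-cluster was at 966 (922 to 1012), one led by *Ear2* and MHC class II genes at 823 (790 to 857), and Ly6c monocytes at 687 (609 to 772). At 24 h the Ly6c monocytes were at 386 (357 to 415) in WT, and the sub-clusters with the lowest *Csf1r* were those led by *Fabp4* (309 in WT, 319 in CCR2 KO) and by *Pf4* and *Fabp5* (342 and 289).

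Within sub-clusters that both genotypes filled, ratios were small at 24 h and larger at 72 h. At 24 h the 4 shared sub-clusters had log2 ratios from −0.24 to 0.29. At 72 h the dividing sub-cluster, led by the immunoglobulin gene *Igkc* and by *Stmn1*, was at 1110 CPM (1029 to 1196) in 43 WT cells and 554 (514 to 595) in 75 CCR2 KO cells, a log2 ratio of −1.0 (−1.16 to −0.85). It made up 50.7% of Mφ-like cells in CCR2 KO and 5.09% in WT. Its leading genes included the plasma cell genes *Igkc*, *Igha* and *Jchain*, and in Mφ-like cells as a whole the 5 plasma cell markers summed to 7.96 CPM, 14.9, 40.8 (1 of 5 at 20 CPM or more) and 1092 (2 of 5). They were thus highest in the library with the lower 72 h *Csf1r*, and their part in that difference was not tested. The sub-cluster led by *Cxcl13* and *Prg4*, genes of peritoneal Mφs, was at 701 (564 to 861) and 179 (100 to 296), the latter from 15 UMIs.

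From 24 h to 72 h within WT, *Csf1r* was also higher inside single sub-clusters. The log2 ratio was 0.98 (0.70 to 1.27) in the *Cx3cr1*-type sub-cluster led by *Mmp13*, 0.83 (0.63 to 1.03) in Ly6c monocytes and 0.78 (0.42 to 1.14) in the *Cxcl13* sub-cluster. Each was under the 1.24 of the class as a whole.

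**Figure D4:**
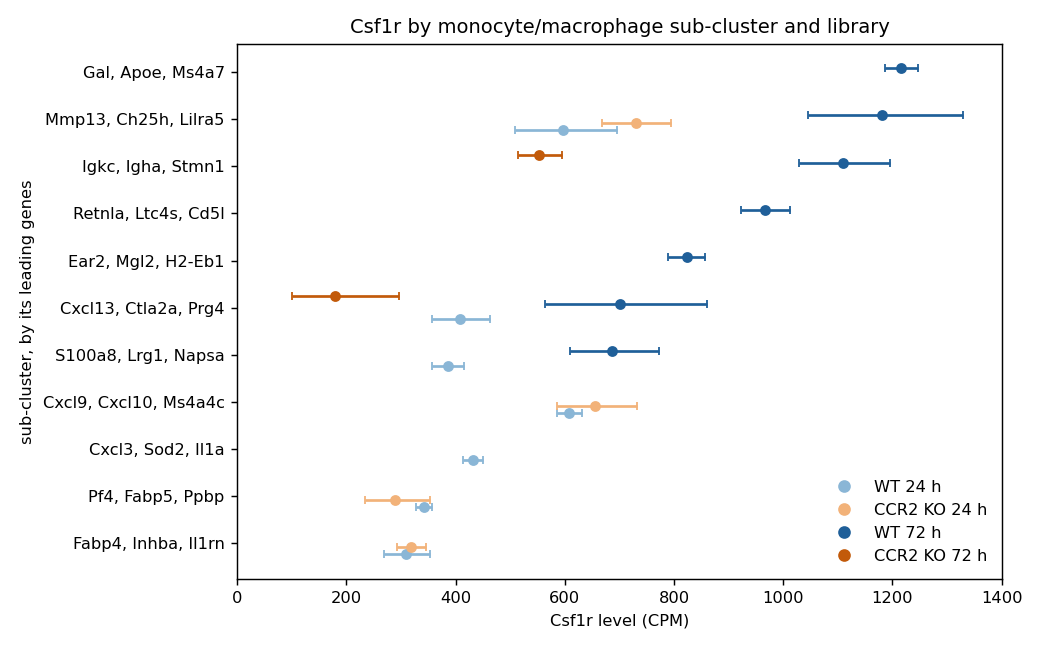
*Csf1r* level in CPM by monocyte/macrophage sub-cluster, named by its leading genes, in each library with at least 20 cells of it; bars are exact 95% counting intervals. Where WT 72 h is drawn beside another library its point lies farthest to the right.

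DC-like cells showed the widest *Csf1r* ratio between genotypes. The 4 levels were 141 CPM (119 to 165), 54.4 (42.5 to 68.4), 298 (281 to 317) and 54.4 (47.1 to 62.4), so that both WT values lay above both CCR2 KO values. The log2 ratio was −1.36 (−1.80 to −0.96) at 24 h and −2.43 (−2.68 to −2.24) at 72 h, and from 24 h to 72 h it was 1.08 (0.83 to 1.34) for WT against 0.00 (−0.39 to 0.41) for CCR2 KO.

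The makeup of the class differed at 24 h as well. A sub-cluster led by *S100a8* and *S100a9* held 27 of 61 WT and 10 of 60 CCR2 KO cells, and mature DC-like cells, led by *Ccr7* and *Fscn1*, 3 and 19. The 9 DC markers summed at 24 h to 1760 CPM (5 of 9 at 20 CPM or more) and 4224 (8 of 9), and at 72 h to 1696 and 1597 (9 of 9 each). The part of this makeup in the 24 h ratio was not tested. Mφ transcripts also moved with these values. The 21 Mφ markers summed in DC-like cells to 3102 CPM (15 of 21 at 20 CPM or more) and 1923 (7 of 21) at 24 h in WT and CCR2 KO, and to 11235 (19 of 21) and 1426 (13 of 21) at 72 h. Without a DC sub-cluster led by *Apoe* and *C1qa*, 40 of whose 44 cells were WT 72 h, the 72 h levels were 144 (129 to 160) for WT against 45.9 (39.3 to 53.4) for CCR2 KO. In cells with no UMI of the complement genes *C1qa*, *C1qb* and *C1qc*, a selection made after the values were seen, they were 61.6 (48.2 to 77.5) in 65 WT cells and 43.9 (36.7 to 52.0) in 105 CCR2 KO cells, a log2 ratio of −0.48. With each cell gated on its own the ratio was −0.94. At 24 h the same selection left 111 (87.6 to 139) and 53.4 (41.1 to 68.2), a log2 ratio of −1.04, and it turned the WT ratio over time to −0.84. The part of Mφ RNA in the difference was not separated further.

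Type 1 DC-like cells, which express *Xcr1* and *Clec9a*, were almost without *Csf1r*. In CCR2 KO 72 h their 39 cells held 1 UMI, or 0.69 CPM (0.02 to 3.83), while *Csf2ra* was at 148 and *Csf2rb* at 105 CPM. The makeup of the DC-like class thus differed at 72 h too. Type 1 cells were 18 of 176 DC-like cells in WT 72 h and 39 of 127 in CCR2 KO 72 h. A sub-cluster led by *Cd209a* and *Krt80* held 38 and 0 cells. The part of this makeup in the 72 h *Csf1r* ratio was not tested.

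Among granulocytes *Csf1r* was low and varied little in neutrophil-like cells, with 155, 120, 172 and 111 CPM and log2 ratios between genotypes of −0.36 and −0.63, the latter 0.22 with separate clustering of the libraries. In the *Siglecf*-high cluster it was at 21.8 (7.09 to 51, 5 UMIs) in WT 72 h and 74.1 (59.2 to 91.6) in CCR2 KO 72 h. This was past 2-fold (log2 1.72, 0.48 to 3.42), and 10 of the 367 CCR2 KO cells held 37.6% of its UMIs. T-like and B-like cells were at 0 to 6.63 CPM except in WT 72 h, where 44 UMIs in 3 of 32 T-like cells gave 180 CPM and 175 UMIs in 8 of 20 B-like cells gave 554. Mφ markers in these T-like and B-like cells summed to 9188 and 30022 CPM.

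*Csf3r* had its highest levels in granulocytes, which held 48.7%, 97.3%, 39.5% and 96.4% of its UMIs. In WT, Mφ-like cells, of which there were more, held 1387 of 2719 UMIs at 24 h and 916 of 1659 at 72 h. The levels in neutrophil-like cells were 1788 CPM (1692 to 1887), 1681 (1642 to 1721), 1716 (1557 to 1886) and 1392 (1323 to 1462). The 24 h intervals overlapped and CCR2 KO 72 h was the lowest of the 4, by a log2 ratio of −0.30 (−0.46 to −0.14) to WT. After thinning, 72.1% to 85.9% of neutrophil-like cells held a UMI, against at most 2 of 176 DC-like cells (1.14%) in any library. Among Mφ-like cells the thinned shares were 6.31%, 4.21%, 7.32% and 0.769%.

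The *Siglecf*-high cluster carried less, at 1252 (1067 to 1460) in CCR2 KO 24 h, 987 (863 to 1124) in WT 72 h and 1248 (1184 to 1314) in CCR2 KO 72 h. Among neutrophil clusters the *Cxcr2* cluster was highest, at 2323, 2422, 2042 and 1696 CPM. The *Il1f9* cluster was lowest, at 1063, 976 and 1034 in the latter 3. In CCR2 KO 24 h the *Il1f9* cluster was thus the lowest of the 4 for *Csf3r* and the highest for *Csf1*. Both genes were found in the same cells. In thinned CCR2 KO 24 h neutrophil-like cells 434 of 1276 held UMIs of both genes, where the product of the separate shares gives 455.

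Mφ-like cells held *Csf3r* at 72.2 CPM (68.5 to 76.1) and 78.2 (73.2 to 83.4) at 24 h and 72 h of WT, against 48.1 (41.3 to 55.8) and 45.7 (36.9 to 55.9) for CCR2 KO. Both WT values lay above both CCR2 KO values, with log2 ratios of −0.57 (−0.82 to −0.36) and −0.76 (−1.10 to −0.47). The direction at 72 h depended on the weighting, since the ratio was 0.07 with each cell weighted equally and −1.17 after thinning. In the thinned data only 1 of 130 CCR2 KO 72 h cells held a UMI. The 24 h ratio was −0.15 with each library clustered on its own. DC-like cells were at 3.77 to 17.2 CPM.

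The chains of the GM-CSF receptor were spread over all myeloid classes. The alpha chain gene *Csf2ra* varied the least between classes, at 118 to 207 CPM in Mφ-like, 144 to 241 in neutrophil-like and 144 to 165 in DC-like cells over the 4 libraries. Its largest ratio in these classes was in CCR2 KO Mφ-like cells over time, from 207 (192 to 222) to 129 CPM (114 to 145), a log2 ratio of −0.68. Among Mφ sub-clusters of WT 72 h it was lowest in the *Cd206* type (76.4) and the dividing cells (76.8) and higher in Ly6c monocytes (231) and the *Ear2* sub-cluster (183).

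The common beta chain gene *Csf2rb* had the same order of classes in every library, with neutrophil-like above DC-like and these above Mφ-like cells and no overlap of intervals. Levels in neutrophil-like cells were 480 CPM (431 to 533), 643 (618 to 668), 580 (489 to 682) and 457 (418 to 498). DC-like cells held 267, 331, 271 and 232 CPM, and Mφ-like cells 149, 164, 174 and 131. In all 3 classes CCR2 KO was higher than WT at 24 h (log2 0.14 to 0.42) and lower at 72 h (log2 −0.40 to −0.23), though the 24 h ratio of Mφ-like cells was −0.17 after thinning. None of these ratios reached 2-fold, and the change of direction was not tested.

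*Csf2rb2*, the interleukin 3 beta chain gene, was at 98.5, 140, 72.0 and 81.2 CPM in neutrophil-like cells and at 64.9, 56.9, 55.2 and 28.2 in Mφ-like cells. The last value, 28.2 (21.4 to 36.5), lay below the other 3 Mφ intervals, by a log2 ratio of −0.95 (−1.38 to −0.58) to WT 72 h. That ratio was past 2-fold in 4 of 13 alternative settings. It was −2.60 after thinning, where only 1 of 130 CCR2 KO 72 h Mφ-like cells held a UMI. In the dividing sub-cluster at 72 h *Csf2rb2* was at 21.0 (13.9 to 30.3) in CCR2 KO and 41.6 (27.2 to 60.9) in WT. *Il3ra*, the alpha chain of the interleukin 3 receptor, was at 29.2 to 40.8 CPM in Mφ-like cells, and *Il5ra* had 10 UMIs in all libraries.

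Few members passed 2-fold between genotypes at 24 h. A gene was counted if its mean level over both libraries was at least 20 CPM and the class had at least 20 cells in each, which *Csf3* met in no class. In Mφ-like cells 1 of 6 counted members (*Csf1*, higher in CCR2 KO) was past 2-fold, where 3.11% of all 5570 counted genes were. *Csf1* met the minimum in this class only through CCR2 KO, the library where it was high, and nothing is read from that count. In neutrophil-like cells it was 1 of 6 (*Csf1*, higher), with 6.68% of all genes, and in DC-like cells 1 of 4 (*Csf1r*, lower), with 4.89%. Medians of the log2 ratio over the members were 0.13, 0.44 and 0.24, against −0.07, 0.11 and −0.03 over all genes.

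At 72 h none of 5 members was past 2-fold in Mφ-like cells (background 6.66%) and none of 6 in neutrophil-like cells (7.46%). *Csf1r* was past it in DC-like cells, 1 of 4 (4.63%), and in the *Siglecf*-high cluster, 1 of 6 (7.21%). The 5 members in Mφ-like cells had a median of −0.76, against 0.12 over all genes of that class, and 4 of them were lower in CCR2 KO.

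Over time in WT, *Csf1r* alone passed 2-fold, 1 of 5 in Mφ-like cells (background 11.6%) and 1 of 4 in DC-like cells (6.11%), with none of 6 in neutrophil-like cells (15.5%). In CCR2 KO over time *Csf1* alone passed, lower at 72 h, 1 of 6 in Mφ-like cells (12.2%) and 1 of 6 in neutrophil-like cells (10%), with none of 4 in DC-like cells (5.51%) and none of 6 in the *Siglecf*-high cluster (18.2%). In Mφ-like cells *Csf1* was again counted only through the 24 h library, where it was high, and nothing is read from that count. These comparisons share libraries: each library enters 2 of the 4.

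**Figure D5:**
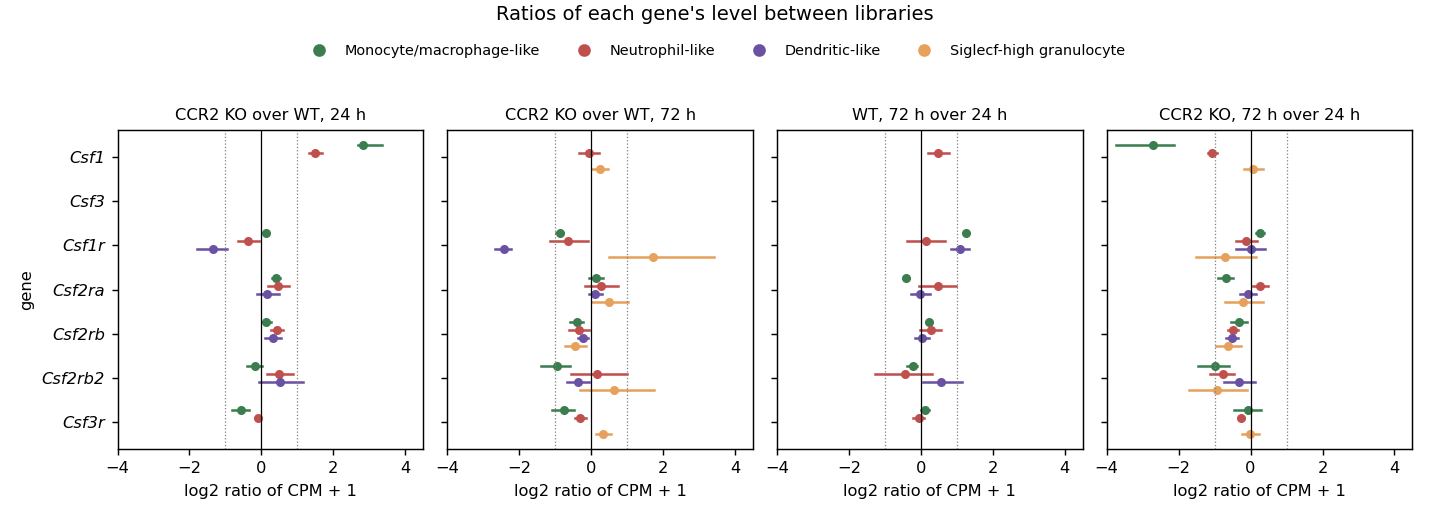
Log2 ratio of the levels (CPM + 1) of each gene in the 4 comparisons, by class, with exact 95% counting intervals computed without the added 1; dotted lines mark 2-fold either way, and genes under 20 CPM on average are left out. *Csf1* stands to the right in the 24 h panel and *Csf1r* of DC-like cells to the left in both panels of CCR2 KO over WT.

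Genes that act behind these receptors were read from lists of kinases, STATs and feedback inhibitors (13 genes), adaptors of CSF1R (12) and myeloid transcription factors (14). In Mφ-like cells at 24 h, 2 of 12 counted genes of the first list were 2-fold or more higher in CCR2 KO and none lower, beside 3.11% of all counted genes past 2-fold either way. These were the STAT5-induced inhibitors *Socs2* (64.6 against 25.5 CPM, log2 1.31) and *Cish* (37.7 against 14.2, log2 1.35), the latter counted through CCR2 KO alone. None of 10 adaptors and 2 of 12 transcription factors passed, *Egr1* (log2 1.30) and *Egr2* (log2 1.45), immediate early genes that growth factors induce. *Egr1* also belongs to the 8 dissociation stress genes, of which 2 were higher, the other being the heat shock gene *Hspa1b* (log2 1.71).

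In neutrophil-like cells at 24 h *Cish* was at 181 CPM in CCR2 KO and 35.6 in WT (log2 2.31, 1.78 to 2.97), the largest ratio of its list, and *Socs1* at 107 and 45.1 (log2 1.23). Of 11 counted genes of this list 2 were higher and none lower, beside 6.68% of all counted genes. *Runx1* (log2 1.36) and *Egr2* (log2 1.39) were the 2 of 8 transcription factors past 2-fold. By 72 h in CCR2 KO *Cish* had gone to 49.95 CPM (log2 −1.84) and *Socs1* to 32.1 (log2 −1.71). *Csf1* in these cells went the same way over this time. The interferon cluster made up 19.5% of WT and 42.8% of CCR2 KO neutrophil-like cells at 24 h, and 6.28% in CCR2 KO 72 h. The part of this makeup in the ratios of *Cish*, *Socs1*, *Runx1* and *Egr2* was not tested.

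At 72 h in Mφ-like cells, where 6.66% of all counted genes passed, 1 of 10 genes of the first list was lower in CCR2 KO, the cytokine inhibitor *Socs3* (129 against 286 CPM, log2 −1.14), and 3 of 12 transcription factors were lower, *Klf4* (log2 −1.39), *Fos* (−1.36) and *Egr2* (−1.02). None of 11 adaptors passed. All 8 division genes were higher, with a median log2 of 3.03, and 5 of 8 dissociation stress genes were lower, with a median of −1.34. Only 1 of the 8 division genes met the minimum level between the WT libraries. Most may thus have been counted only through CCR2 KO, where they were high, and nothing is read from that count. The division and stress genes moved beside the lower *Csf1r*, and their part in it was not tested. In DC-like cells (4.63% of all genes past 2-fold) 8 of 12 transcription factors were lower. Among them were the Mφ factors *Maf* (3.23 against 100.9 CPM, log2 −4.59) and *Cebpb* (104 against 404, log2 −1.95). *Maf* was counted through WT alone, where it was high. *Irf8*, a factor of type 1 DCs, was higher (log2 1.07).

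Over time in WT Mφ-like cells *Cebpa* (log2 1.43) and *Runx1* (log2 1.13), both known regulators of *Csf1r*, were the 2 of 12 transcription factors past 2-fold. Of all counted genes 11.6% passed in this comparison, a share near that of the list, and nothing is read from the count. In CCR2 KO Mφ-like cells over time 12.2% of all genes were past 2-fold. *Cish* was at 9.24 CPM by 72 h (log2 −1.92) and was counted only through the 24 h library, where it was high. Of the transcription factors 5 of 12 were lower, and 2 of 10 adaptors were higher, the PI3-kinase subunits *Pik3cd* (log2 1.48) and *Pik3cg* (log2 1.32). The sheddase genes *Adam17* and *Adam10*, whose products cut CSF1 and CSF1R from the cell surface, passed 2-fold in DC-like cells only, where the ratio of *Adam10* was below 1 at 24 h and 72 h (log2 −1.05 each, CCR2 KO over WT, with 4.89% and 4.63% of all genes past 2-fold).

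Across the 25 pairs of class and library with at least 20 cells, each gene had close companions. The pairs share libraries and depth, and r is a description. *Csf1* ran with *Gm37800* (Pearson r of log2 levels 0.952), the hydroxycarboxylic acid receptor gene *Hcar2* (0.951) and *Gm26809* (0.950). *Csf3r* was closest to *Tnfaip2* (0.97) and the chemokine gene *Cxcl2* (0.967), and *Csf1r* to the lysozyme gene *Lyz2* (0.957) and *Clec4a3* (0.955). *Csf2rb* was closest to *Cd300a* (0.989), and *Csf2ra* and *Csf2rb2* shared *Gpr35* as nearest gene (0.963 and 0.980), with 0.957 between each other. *Csf3*, with 437 UMIs, had its nearest companion in *Sod2* (0.849).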

How the data were processed

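CD45+ cells were profiled with the 10x 3′ v3 kit, and the authors made the deposited tables of UMI counts per gene and cell with Cell Ranger 3.0.2 on GRCm38 (mm10) and removed cells under a gene minimum or over a mitochondrial limit, which the tables bear out (at most 9.99% mitochondrial UMIs). Seurat is also named. Doublet removal is not given in the sources used here, and Scrublet marked 9 of 5797 cells (0.155%), too few to have worked.

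Cells were pooled and clustered with scanpy 1.11.5 and leidenalg 0.10.2 (2000 variable genes without the 7 members, the listed pathway genes and *Ccr2*, 30 components, 20 neighbours, resolution 1, 18 clusters) under Python 3.11.15. Counts were summed per class and library, and levels carry exact Poisson and ratios exact binomial 95% intervals (scipy 1.17.1). Ratios are log2 of (CPM + 1), called at 2-fold with a mean level of 20 CPM or more. Shares were taken after thinning to 1000 UMIs. With 1 library per group no p-value was computed. A count of 0 was given the limit of 3 counts. Marker lists came from general knowledge. edgeR 4.0.16 gave TMM factors only. The ratio step was tested on simulated data.

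All 7 members, the 5 genes most like each and up to 3 genes per list and comparison with the largest ratio were to be named, but the text names only 1 to 3 of those 5, and other called genes named were chosen after their values were seen. Members and lists were chosen with earlier results of these data known. Of the alternatives, 10 were planned and 3 added after seeing the data.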

Additional observations from a re-analysis of the deposited data

Results flagged for a closer look

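Among member ratios between genotypes whose counting intervals excluded 0 at both times, 4 pointed one way at 24 h and the other way at 72 h, and none of these differences was tested. *Csf1r* in Mφ-like cells had log2 ratios of CCR2 KO over WT of 0.11 and −0.88. *Csf2rb* had 0.14 and −0.4 in Mφ-like cells, 0.42 and −0.34 in neutrophil-like cells and 0.31 and −0.23 in DC-like cells. With 1 library per group each direction rests on a single pair of libraries.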

How the results depend on the processing

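Over Mφ-like, neutrophil-like and DC-like cells together, 3, 1, 2 and 2 member ratios were past 2-fold for CCR2 KO against WT at 24 h, the same at 72 h, time in WT and time in CCR2 KO. Without a minimum level the counts were 5, 2, 5 and 4. At 72 h the count was 3 with TMM factors, 2 with each library clustered on its own, 4 with each cell weighted equally, 5 after thinning, and 0 in DC-like cells without C1q UMIs. For time in WT it was 1 with cells gated one by one, at resolution 2, with a mitochondrial limit of 5%, without the *S100a9*-led and *Apoe*-led sub-clusters, and in DC-like cells without C1q UMIs. For time in CCR2 KO it was 4 with cells gated one by one, 1 at resolution 2, and 1 with the *Siglecf*-high cluster counted as neutrophil-like. *Csf1r* over time in WT DC-like cells turned to −0.18 with cells gated one by one and −0.84 without C1q UMIs. The cause of these shifts was not tested. *Csf1* at 24 h stayed past 2-fold in all 13 alternatives, with log2 ratios of 2.33 to 3.19 in Mφ-like and 1.11 to 1.5 in neutrophil-like cells. Some of the 13 cannot move a given ratio, here or where they are counted above. Dropping the minimum level changes no ratio, and selections made in other classes leave a class as it was. Removing Scrublet calls took out only 9 of 5797 cells. No paired analysis was possible because each group has 1 library.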
